A study of Homo sapiens with 32 samples.

Results

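The comparison describes the step from pancreatic progenitors (S4) to immature β-like cells (S6) in H1 and MEL1. Both are established human embryonic stem cell lines and differ in genetic background. The 2 replicates of a line and stage were described as independent biological samples. The comparison rests on the 4 input libraries of S6 and the 4 of S4, 2 replicates of each line, out of 32 libraries in the series. An input library is the poly(A)-selected, fragmented RNA set aside before the m6A immunoprecipitation, so that its reads measure transcript abundance. Both stages had been patterned with FGF7, the Hedgehog pathway inhibitor SANT-1, retinoic acid ascorbic acid, the protein kinase C activator TPB and the BMP receptor inhibitor LDN-193189, after induction with GDF8 and CHIR-99021. From S4 to S6 the cells additionally received triiodothyronine, ALK5 inhibitor II (an inhibitor of the TGF-β type I receptor), zinc, high glucose and heparin. The γ-secretase inhibitor GSiXX followed, and last N-Cys, Trolox and R428. FGF7 and, in steps, SANT-1 and retinoic acid were withdrawn. LDN-193189 had been left out in the days before the S4 harvest. It was given again after that harvest and was left out of the last step. The S6 cultures were not stated to be sorted. In bulk libraries fewer cells of a type and less RNA per cell cannot be told apart.

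The deposited table counts reads in merged m6A peaks. A gene is therefore measured only if it carries a peak in at least 1 library type and stage, and its level here is the sum of the input reads over its peaks, in CPM (counts scaled to a common library size) after TMM scaling. This gave 7978 genes, of which 7973 passed the minimum total of 10 reads and were tested. INS, IAPP, GCG, SST and NKX6-1 were not analysed here.

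β-cells arise from PDX1-expressing multipotent progenitors, which pass through a short endocrine progenitor state and then leave the cell cycle. Their maturation brings in hormone genes, the granins and processing enzymes of the dense-core granule, and an exocytosis and excitability programme that they share with neurons, many of whose cytoskeletal and adhesion genes are also expressed in islet endocrine cells. Signals that act on progenitors include NODAL and TGF-β, Notch, YAP and TEAD, and retinoic acid.

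The 8 libraries held between 2648841 and 5270947 input reads, of which 11.6% to 17.7% came from mitochondrially encoded transcripts. Of 14 islet endocrine markers only INS-IGF2, CHGA and ISL1 were measured. Their summed level was 893 to 1302 CPM at S4 and 2603 to 5167 CPM at S6. Most of the S6 sum was INS-IGF2, a read-through transcript whose reads cannot be assigned to INS or IGF2. In H1 that transcript had stood at 1966 and 1790.4 CPM at S3. The endocrine label of S6 thus rests on few genes. PDX1, the master transcription factor of the pancreas, ran against it in H1, as described below with the islet genes. The defining markers of acinar cells and of enterochromaffin cells were not measured. Of a wider enterochromaffin list of 15 genes only CHGA and CBLN1 were measured. Both were called higher, CBLN1 in both lines, beside 2.85% of all genes called higher and 1.42% higher in both lines. CHGA is also one of the islet endocrine markers above. The part of enterochromaffin cells in the results was not tested. Hepatic markers (AFP, APOA1 and VTN, 3 of 4 measured) summed to 62017 and 65263 CPM in MEL1 at S4, 2868 and 2951 CPM in MEL1 at S6, 137 and 187 CPM in H1 at S4 and 83.5 and 92.0 CPM in H1 at S6. Neural markers (NES, SOX1, ZIC1 and POU3F2, 4 of 5 measured) summed to 2128 to 2787 CPM in H1 and 499.7 to 707 CPM in MEL1 and were not called at S6.

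The H1 replicates at S4 stood further apart than those of the other 3 groups. The chi-square of their counts over genes, per degree of freedom, was 14.5, against 1.77 in H1 at S6, 5.75 in MEL1 at S4 and 4.94 in MEL1 at S6. Among the genes called higher at S6, 173 of 227 were already higher in H1 S4 replicate 2 than in replicate 1 (76.2%, against 48.8% of all genes tested), and among those called lower 46 of 186 were (24.7%). The number of called members of a list is therefore given below also without that library wherever it differs. What set it apart was not tested.

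Genes were called at 2-fold or more with an adjusted p below 0.1, from the quasi-likelihood model of edgeR with stage and cell line as terms. By this rule S6 exceeded S4 in 227 genes (2.85%) and fell short of it in 186 (2.33%), together 5.18% of the genes tested. All 4 S6 libraries lay above all 4 S4 libraries in 358 genes (4.49%) and below them in 357 (4.48%). Of the 413 called genes, 3 moved in opposite directions in the lines, 161 changed less than 2-fold in H1 and 28 less than 2-fold in MEL1. In 215 genes (2.7% of those tested) the change was at least 2-fold in each line, with both S6 libraries of a line beyond both of its S4 libraries. These comprised 113 higher (1.42%) and 102 lower (1.28%) genes. Without H1 S4 replicate 2 the numbers were 208 and 110, 182 genes being shared, and without H1 S4 replicate 1 they were 73 and 88. The 413 calls became 266 without MEL1 S6 replicate 1 and likewise without MEL1 S6 replicate 2, and 272 without MEL1 S4 replicate 2.

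**Figure D1:**
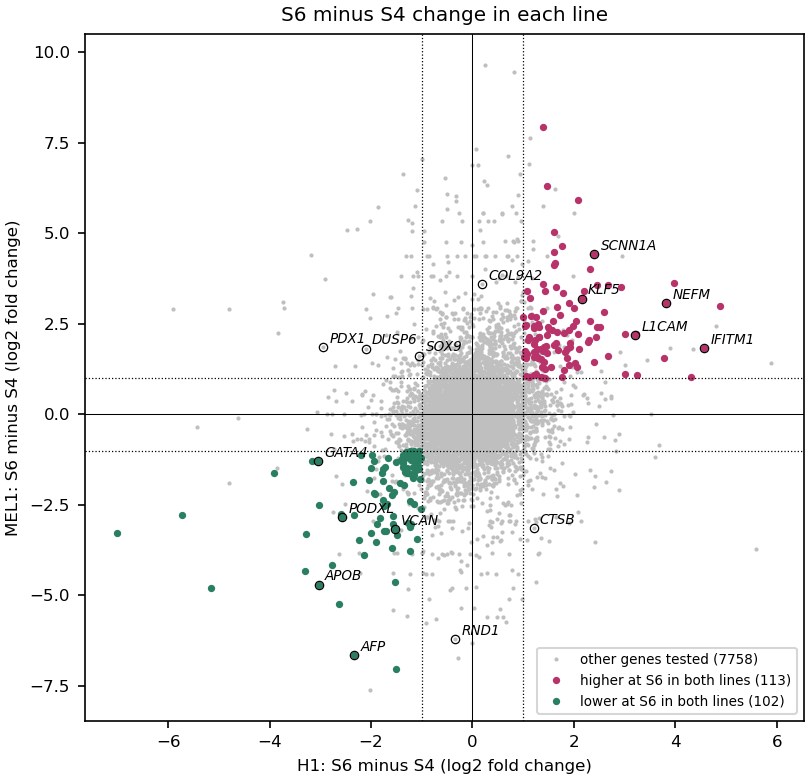
Each point is a gene tested, placed by its log2 fold change from S4 to S6 in H1 (horizontal) and in MEL1 (vertical). Dotted lines mark a 2-fold change. The 113 genes higher and 102 genes lower in both lines fill the upper right and lower left corners by construction, whereas PDX1, SOX9 and DUSP6 lie in the upper left and CTSB in the lower right, having moved in opposite directions.

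The list with the most members called higher was neuronal cytoskeleton and RNA-binding genes. Of its 26 measured members 10 were called higher, all 10 of them in both lines, and none lower, against 2.85% of all genes called higher. The median log2 fold change of the list was 0.89 (1.48 without H1 S4 replicate 2), beside -0.03 over all genes tested. NEFL, NEFM and INA encode neurofilament subunits, L1CAM a neural adhesion molecule, KIF5C a kinesin motor of axonal transport, DPYSL2 a growth-cone protein, GAP43 a growth-cone phosphoprotein, STMN2 and STMN3 regulators of microtubule dynamics and CELF4 a neuronal splicing factor. NEFM was at 198 and 192 (H1) and 47.1 and 37.0 CPM (MEL1) at S4 against 2823 and 2699.5 (H1) and 349.6 and 354 CPM (MEL1) at S6. The S6 libraries of each line stood above all 4 S4 libraries, although H1 at S6 was well above MEL1 at S6. The log2 fold change of NEFM was 3.46 ± 0.80 (SE, adjusted p = 0.0194), and that of NEFL 3.80 ± 0.61 (SE, adjusted p = 0.00199). NEFL was at 28.2 and 28.2 (H1) and 5.89 and 5.18 CPM (MEL1) at S4 against 457 and 434 (H1) and 64.8 and 72.3 CPM (MEL1) at S6.

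L1CAM showed nearly the same S6 level in both lines. It was at 12.4 and 14.7 (H1) and 26.5 and 22.2 CPM (MEL1) at S4 against 125 and 128 (H1) and 111 and 113 CPM (MEL1) at S6, a log2 fold change of 2.66 ± 0.39 (SE, adjusted p = 0.00105). KIF5C rose by 1.82 ± 0.34 (SE, adjusted p = 0.0053) and DPYSL2 by 1.61 ± 0.26 (SE, adjusted p = 0.00197) on the same scale, with all S6 libraries above all S4 libraries. In INA and CELF4 the rise lay within each line, but the stages overlapped when the lines were pooled, because H1 at S4 (for CELF4 its replicate 2 alone) was above MEL1 at S6. CELF4 was not called without H1 S4 replicate 1, either H1 S6 replicate or either MEL1 S4 replicate. INA was at 15.6 and 16.5 (H1) and 3.37 and 1.11 CPM (MEL1) at S4 against 125 and 133 (H1) and 12.0 and 8.48 CPM (MEL1) at S6. When single libraries were left out, the group had between 6 and 10 members called higher, 10 higher (9 in both lines) and 1 lower without H1 S4 replicate 2, and 6 without either H1 S6 replicate, without H1 S4 replicate 1 or without MEL1 S4 replicate 2. The 16 members that were not called ran from -1.70 (DPYSL3) to 1.57 (ANK2). Of 10 measured neural progenitor genes none was called higher.

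**Figure D2:**
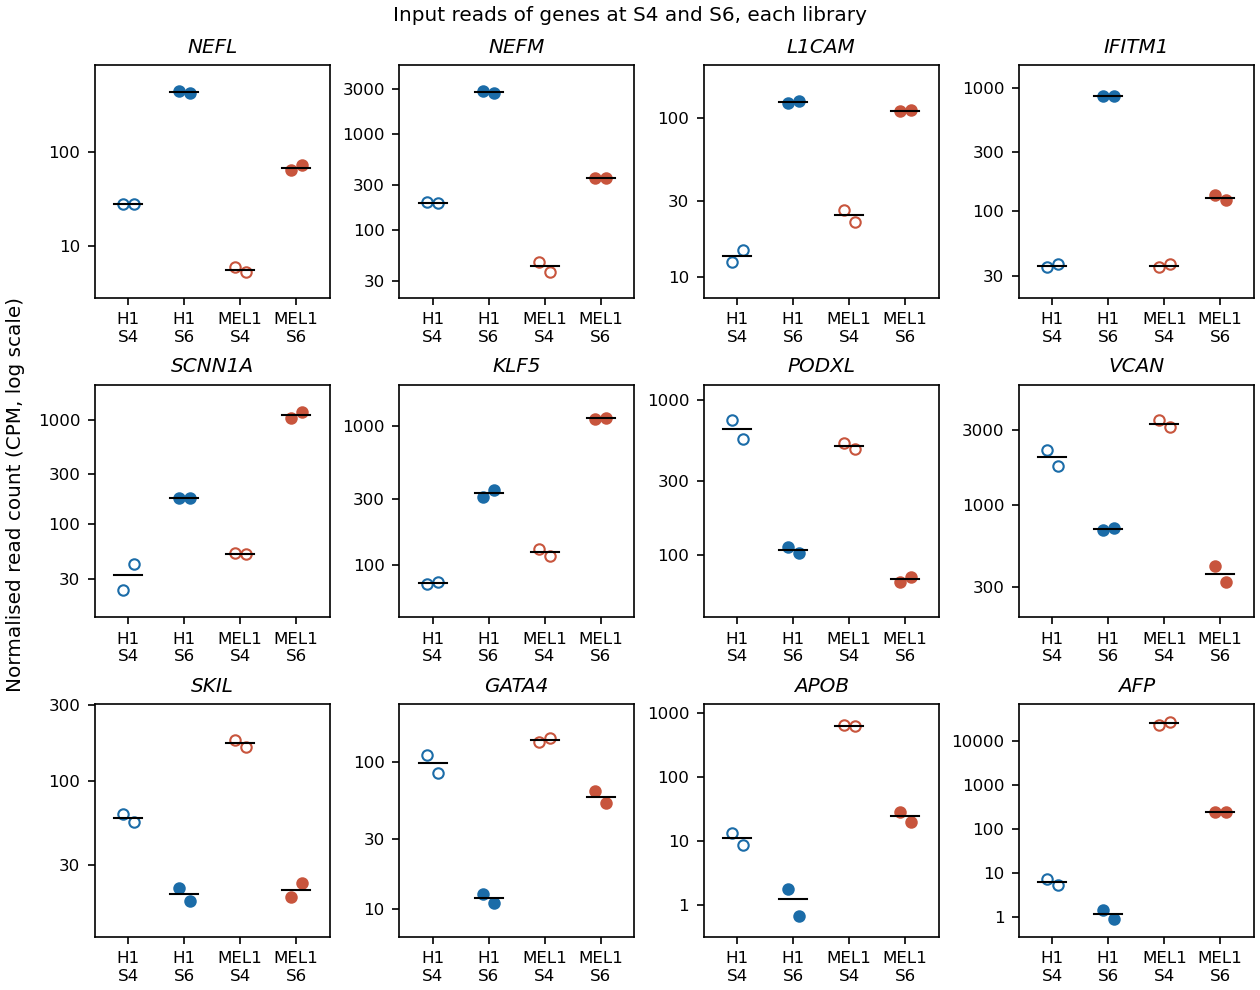
Normalised read count (CPM, log scale) of 12 genes in each library, with H1 in blue and MEL1 in red, S4 as open and S6 as filled circles; black bars are means of 2 libraries. The first 6 genes rose and the last 6 fell from S4 to S6 in both lines, while the level at a stage could differ between lines by more than the change, as for AFP and APOB.

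SCNN1A, KLF5, SFN, RNASE1 and GDF15 were among the 20 largest rises. The ductal markers (KRT19, KRT7 and SPP1, 3 of 4 measured, none called) moved with them, from 595 and 837 CPM to 1275 and 1309 CPM in H1 and from 3745 and 4299.9 CPM to 8272 and 9074 CPM in MEL1, and their part in these rises was not tested. SCNN1A, the α subunit of the epithelial sodium channel, was at 23.5 and 42.1 (H1) and 52.6 and 52.1 CPM (MEL1) at S4 against 177 and 178 (H1) and 1052 and 1188 CPM (MEL1) at S6. It changed by 3.63 ± 0.43 (SE, adjusted p = 0.000207), and the change was larger in MEL1 (4.42) than in H1 (2.40, adjusted p of the difference = 1.14e-05). KLF5, a zinc-finger transcription factor of epithelial cells, was at 72.5 and 74.9 (H1) and 131 and 115 CPM (MEL1) at S4 against 310.1 and 346 (H1) and 1118 and 1144 CPM (MEL1) at S6 and had the smallest adjusted p among the rises (2.62 ± 0.24, SE, adjusted p = 2.65e-05). All 4 S6 libraries of both genes exceeded all 4 S4 libraries. SFN, which encodes the epithelial adaptor 14-3-3σ, rose by 3.20 ± 0.43 (SE, adjusted p = 0.000503), RNASE1, the secreted pancreatic-type ribonuclease, by 2.73 ± 0.39 (SE, adjusted p = 0.000908), and, outside those 20, SDC1, a cell-surface heparan sulphate proteoglycan, by 1.83 ± 0.26 (SE, adjusted p = 0.000775). GDF15, a stress-responsive ligand of the TGF-β family, rose by 2.69 ± 0.34 (SE, adjusted p = 0.000297), and its libraries overlapped between stages only because MEL1 at S4 was above H1 at S6.

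IFITM1, an interferon-inducible membrane protein, was at 34.9 and 37.4 (H1) and 34.9 and 37.0 CPM (MEL1) at S4 against 864 and 865 (H1) and 136 and 122 CPM (MEL1) at S6. Both lines began at the same level, and the rise was larger in H1 (4.57) than in MEL1 (1.84, adjusted p of the difference = 1.39e-08). APOBEC3C, a cytidine deaminase, rose by 2.44 ± 0.47 (SE, adjusted p = 0.00718). CBLN1, a secreted synaptic organiser, showed the largest rise that the rule for named genes admitted (4.21 ± 0.59, SE, adjusted p = 0.000775), from at most 4.81 CPM in any S4 library to between 14.9 and 103 CPM at S6.

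The immediate early genes FOS and EGR1 moved in opposite directions. FOS, a subunit of the AP-1 transcription factor, was at 3.22 and 14.6 (H1) and 9.26 and 11.5 CPM (MEL1) at S4 against 46.8 and 41.3 (H1) and 127 and 92.9 CPM (MEL1) at S6, and changed by 2.92 ± 0.44 (SE, adjusted p = 0.00142). EGR1, a zinc-finger factor induced by the same kinds of stimuli and named here after its values were seen, was at 32.4 and 37.0 (H1) and 51.3 and 52.1 CPM (MEL1) at S4 against 9.96 and 12.4 (H1) and 17.2 and 8.08 CPM (MEL1) at S6, and changed by -1.84 ± 0.28 (SE, adjusted p = 0.00154). In both genes all libraries of a stage lay on the same side of all libraries of the other.

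In some of the largest rises H1 S4 replicate 2 lay between the other S4 library of H1 and the S6 libraries. AOC1, which encodes diamine oxidase, was at 0 and 20.9 (H1) and 5.47 and 9.61 CPM (MEL1) at S4 against 51.6 and 73.8 (H1) and 65.1 and 119 CPM (MEL1) at S6. ARRDC4, an α-arrestin, was at 0.247 and 13.2 (H1) and 1.26 and 1.11 CPM (MEL1) at S4 against 22.4 and 22.5 (H1) and 38.2 and 41.6 CPM (MEL1) at S6, and its call was lost without either MEL1 S4 replicate. Both were called also without H1 S4 replicate 2.

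In the model with both lines, hormone and granule genes were called in the upward direction alone. Of 10 measured members, 5 were called higher (CHGA, VGF, SYT13, INS-IGF2 and SYT11), 3 of them in both lines (VGF, SYT13 and INS-IGF2), and none was called lower, beside 2.85% of all genes called higher and 1.42% higher in both lines. The median was 1.10. In the H1 libraries alone 6 were called higher and none lower, beside 397 and 348 of at most 7973 genes. In the MEL1 libraries alone 3 were higher and 1 lower, beside 618 and 629. Without cell line in the model none was called. The count changed with single libraries. It was 1 without H1 S4 replicate 1, 3 without H1 S4 replicate 2, H1 S6 replicate 2, either MEL1 S4 replicate or MEL1 S6 replicate 2, and 4 in the other fits with a library left out. CHGA, which encodes chromogranin A of the dense-core granule, was at 626 and 485 (H1) and 56.4 and 50.7 CPM (MEL1) at S4 against 811 and 782 (H1) and 722 and 728 CPM (MEL1) at S6. Every S6 library lay above every S4 library, but the change was 3.76 in MEL1 and 0.52 in H1, where the level was high already at S4 (adjusted p of the difference = 4e-09). The pooled log2 fold change of CHGA was 2.23 ± 0.50 (SE, adjusted p = 0.0166). VGF, a neuroendocrine secretory peptide precursor, rose by 2.22 ± 0.61 (SE, adjusted p = 0.0446) from 6.87 CPM or less to between 8.61 and 22.3 CPM, and was not called without H1 S4 replicate 1 or MEL1 S4 replicate 1. Its change was 2.94 without H1 S4 replicate 2. The synaptotagmins SYT13 (1.41 ± 0.40, SE, adjusted p = 0.0524) and SYT11 (1.04 ± 0.34, SE, adjusted p = 0.0893) had smaller changes. SYT13 was not called without H1 S4 replicate 1, H1 S6 replicate 2, MEL1 S4 replicate 2 or MEL1 S6 replicate 2, and SYT11 lost its call whichever library was left out.

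INS-IGF2 is a read-through transcript that shares sequence with INS and IGF2, and its reads cannot be assigned to either gene. It was at 551 and 406 (H1) and 1129 and 1251 CPM (MEL1) at S4 against 1789.6 and 1853 (H1) and 4279.9 and 4435 CPM (MEL1) at S6, with a log2 fold change of 1.89 ± 0.58 (SE, adjusted p = 0.0703) and all S6 libraries above all S4 libraries. At S3 it had been at 1966 and 1790.4 CPM in H1 and 368 and 436 CPM in MEL1. The call was lost without either H1 S4 replicate, without MEL1 S4 replicate 1 or without either MEL1 S6 replicate. The identifier ENSG00000240801, for which the name table gave no symbol, also rose without overlap, from 237 and 163 (H1) and 490.1 and 503 CPM (MEL1) at S4 against 1138 and 1140.2 (H1) and 2709 and 2564 CPM (MEL1) at S6 (2.44 ± 0.60, SE, adjusted p = 0.0269).

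The fixed lists of endocrine transcription factors and of exocytosis genes held no called member. None of the 12 measured endocrine transcription factors passed the test, with a median of 0.60, and none of the 12 measured exocytosis genes, with a median of 0.48. Without H1 S4 replicate 2, 1 endocrine transcription factor (median 0.90) and 2 exocytosis genes (median 0.98) were called higher, all in both lines, and without H1 S4 replicate 1 none was (medians 0.50 and 0.17). The lines stood apart for the transcription factors. In the MEL1 libraries alone 6 were called higher and none lower (median 1.37), beside 618 and 629 of at most 7973 genes. In the H1 libraries alone none was higher and 1 lower (median 0.00097), beside 397 and 348. Of the exocytosis genes 1 was called higher in MEL1 alone and 4 in H1 alone. The difference between the lines was not tested for either list. RIMS4, a presynaptic gene outside the list, was among the 20 largest rises (2.57 ± 0.39, SE, adjusted p = 0.00132). At an unadjusted p under 0.05 each list held 1 gene, IRX2 and RAB3C, both with higher values at S6, beside 21.0% of all genes. DESeq2 called IRX2, a homeobox gene of α-cells. For ISL1, a LIM-homeodomain factor of islet cells, the change was 1.01 ± 0.85 (SE, adjusted p = 0.557) at levels of at most 3.64 CPM. For GLIS3, a zinc-finger factor of β-cells, it was 0.53 ± 0.45 (SE, adjusted p = 0.557). Among 10 ion channel and excitability genes 1 was called higher, beside 2.85% of all genes. It was ATP2A3, a calcium pump of the endoplasmic reticulum (2.24 ± 0.63, SE, adjusted p = 0.0475). The call was lost without H1 S6 replicate 1, either MEL1 S4 replicate or MEL1 S6 replicate 1.

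PDX1, SOX9, MNX1 and HHEX, which mark or specify the pancreatic lineage, moved in opposite directions in the lines. PDX1 was at 21.5 and 19.5 (H1) and 16.8 and 17.4 CPM (MEL1) at S4 against 3.02 and 2.21 (H1) and 67.4 and 57.8 CPM (MEL1) at S6. It thus fell by more than the spread between replicates in H1 and rose in MEL1, and the pooled log2 fold change of 0.30 ± 0.77 (SE, adjusted p = 0.869) describes neither line. The difference between the lines was 4.81 ± 0.39 (SE, adjusted p = 2.63e-08). SOX9, which marks progenitors and ducts, was at 34.6 and 34.4 (H1) and 23.6 and 23.3 CPM (MEL1) at S4 against 16.2 and 17.2 (H1) and 71.5 and 73.1 CPM (MEL1) at S6, and the lines differed by 2.67 ± 0.31 (SE, adjusted p = 3.69e-06). MNX1, needed for β-cell identity, was at 17.1 and 17.3 (H1) and 2.10 and 4.07 CPM (MEL1) at S4 against 6.23 and 4.42 (H1) and 6.36 and 12.5 CPM (MEL1) at S6, with a difference of 3.25 ± 0.73 (SE, adjusted p = 0.00332). HHEX, a homeobox gene of the ventral foregut, changed by -2.12 in H1 and 0.65 in MEL1 (adjusted p of the difference = 0.0244). None of the 4 was called in the pooled comparison.

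**Figure D3:**
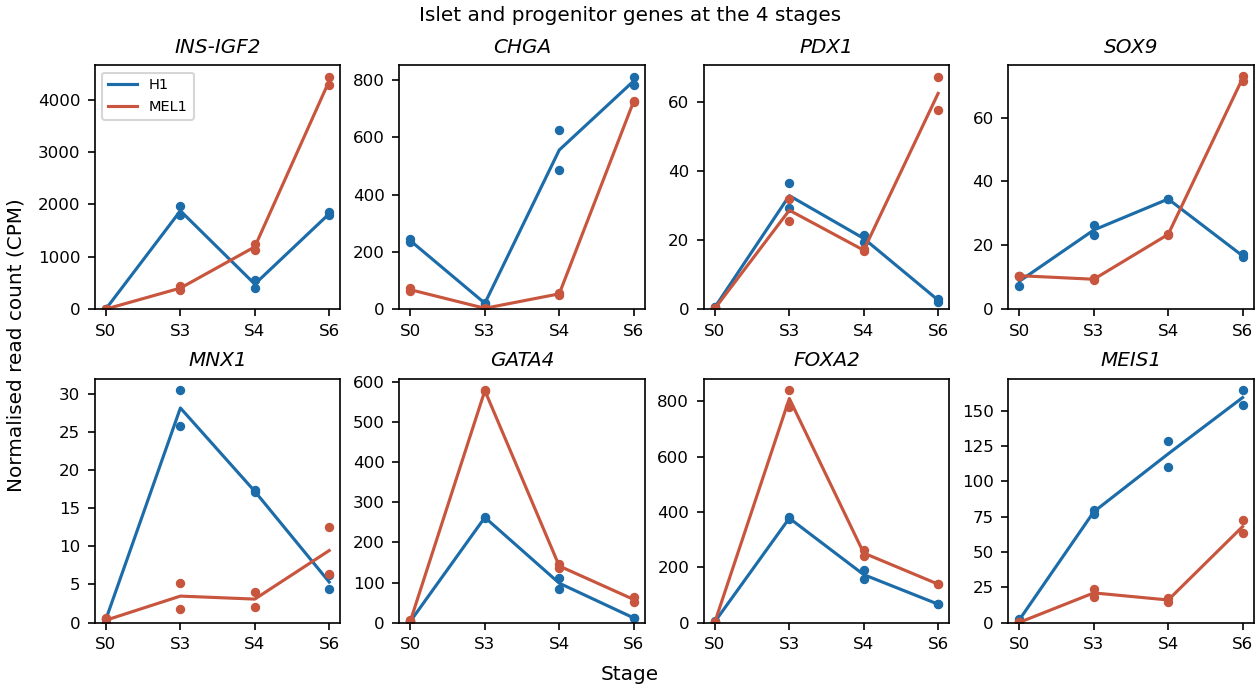
Normalised read count (CPM, linear scale from 0) of 8 islet and progenitor genes at S0, S3, S4 and S6; points are libraries and lines join the means of 2 libraries of H1 (blue) and MEL1 (red). GATA4 and FOXA2 peaked at S3 and were lower at S6 than at S4 in both lines, CHGA was highest at S6 in both, and PDX1, SOX9 and MNX1 fell in H1 and rose in MEL1 from S4 to S6.

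Of 38 measured progenitor and endoderm transcription factors 5 were called higher and 3 lower, beside 2.85% and 2.33% of all genes, and the median was 0.00. Without H1 S4 replicate 2 there were 5 and 4. In the H1 libraries alone 5 were called higher and 11 lower, beside 397 and 348 of at most 7973 genes. In the MEL1 libraries alone there were 12 and 6, beside 618 and 629. GATA4, a zinc-finger factor of early endoderm and pancreas progenitors, was at 113 and 84.3 (H1) and 137 and 145 CPM (MEL1) at S4 against 12.6 and 11.0 (H1) and 63.3 and 52.5 CPM (MEL1) at S6. Its change of -2.08 ± 0.31 (SE, adjusted p = 0.00136) held in both lines and was larger in H1 (-3.04) than in MEL1 (-1.29, adjusted p of the difference = 9.55e-05). FOXA2, a pioneer factor of endoderm, changed by -1.11 ± 0.22 (SE, adjusted p = 0.00896) with no overlap between the stages, but by less than 2-fold in MEL1 (-0.85). The related FOXA1 (-0.78 ± 0.25, SE, adjusted p = 0.0758) missed the 2-fold threshold and GATA6 (-0.11 ± 0.24, SE, adjusted p = 0.85) both thresholds, and HNF4A, a nuclear receptor of liver and islet, changed by 0.24 in H1 and -1.81 in MEL1. Among the risers were ONECUT2, a factor of the liver and pancreas lineage (1.45 ± 0.36, SE, adjusted p = 0.0283), NR2F2, an orphan nuclear receptor (1.34 ± 0.30, SE, adjusted p = 0.0172), and MEIS1, a homeodomain cofactor, which was at 110.1 and 129 (H1) and 17.7 and 14.4 CPM (MEL1) at S4 against 164 and 154 (H1) and 63.6 and 72.3 CPM (MEL1) at S6. MEIS1 rose by 1.19 ± 0.28 (SE, adjusted p = 0.0234). MEIS1 and NR2F2 changed by less than 2-fold in H1 (0.41 and 0.87).

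NODAL, LEFTY2 and CER1 were among the 20 largest falls. NODAL, the ligand that sustains pluripotency and induces endoderm, was at 1.24 and 0.687 (H1) and 30.3 and 28.5 CPM (MEL1) at S4 against 0.178 and 0.442 (H1) and 0.374 and 0 CPM (MEL1) at S6. Over the 4 libraries of a stage it had 159 reads at S4 and 4 at S6, a ratio of normalised counts of 37.1 with a 95% exact interval of 14.2 to 138 that covers counting error only (adjusted p = 0.00434, edgeR). Its fitted change of -4.78 was -5.72 without H1 S6 replicate 2 and -3.99 without MEL1 S6 replicate 2. LEFTY2, a secreted NODAL antagonist that NODAL signalling itself induces, was at 20.8 and 12.5 (H1) and 51.3 and 42.9 CPM (MEL1) at S4 against 0.178 and 0 (H1) and 2.99 and 6.87 CPM (MEL1) at S6. Its change was -3.93 ± 0.90 (SE, adjusted p = 0.0188), with -5.13 without MEL1 S6 replicate 2, and that of CER1, the secreted antagonist Cerberus, -3.84 ± 0.86 (SE, adjusted p = 0.0172). All S6 libraries of the 3 genes were below all S4 libraries. LEFTY1, the related antagonist, was not called, with 2.34 (adjusted p = 0.247), -2.90 in H1 and 3.74 in MEL1.

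Of 36 measured TGF-β and BMP pathway genes 5 were called lower and 3 higher, with a median of -0.08, beside 2.33% and 2.85% of all genes. Without H1 S4 replicate 2 there were 4 of each. The higher count was 1 without H1 S4 replicate 1 or any single MEL1 library of S4 or S6 and 2 without either H1 S6 replicate, and the lower count was 3 without either MEL1 S6 replicate. The fallers were SKIL, BAMBI, SMAD7, ACVR1 and INHBE, an inhibin subunit gene, and the risers GDF15, TGFBR2 and BMP5, a BMP ligand. The first 3 encode feedback inhibitors whose transcription SMADs are known to induce. SKIL, a SMAD corepressor, was at 62.1 and 55.8 (H1) and 179 and 164 CPM (MEL1) at S4 against 21.5 and 17.9 (H1) and 18.7 and 23.0 CPM (MEL1) at S6 and fell in both lines (-2.23 ± 0.27, SE, adjusted p = 0.000224). BAMBI, a pseudoreceptor, changed by -1.84 ± 0.38 (SE, adjusted p = 0.0103) and SMAD7, an inhibitory SMAD, by -1.46 ± 0.35 (SE, adjusted p = 0.0244), both mainly in MEL1. For BAMBI the change was -2.92 in MEL1 and -0.71 in H1 (adjusted p of the difference = 1.4e-06), and for SMAD7 -2.56 in MEL1 and -0.35 in H1 (adjusted p of the difference = 0.000675). SMAD7 was not called without either MEL1 S6 replicate. ACVR1, a BMP type I receptor, changed by -1.56 ± 0.29 (SE, adjusted p = 0.00611), with -0.83 in H1 and -2.30 in MEL1. On the other side TGFBR2, the TGF-β type II receptor, rose by 1.59 ± 0.47 (SE, adjusted p = 0.0603) with 2.26 in MEL1 and 0.37 in H1 (adjusted p of the difference = 0.0252). It was not called with H1 S4 replicate 1 or any single MEL1 library of S4 or S6 left out.

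Wnt genes showed 3 called fallers of 37 (2.33% of all genes) and no called riser (2.85%). SP5, a transcriptional target of β-catenin, was at 123 and 91.1 (H1) and 42.9 and 76.5 CPM (MEL1) at S4 against 17.1 and 8.83 (H1) and 13.1 and 8.08 CPM (MEL1) at S6, with no overlap between the stages and a change of -2.78 ± 0.71 (SE, adjusted p = 0.0315). ROR1, a receptor of non-canonical WNT5A signalling, changed by -2.46 ± 0.35 (SE, adjusted p = 0.000908). FZD8, a Frizzled receptor, had 44 reads over the S4 libraries and 4 over the S6 libraries, and was not called without H1 S6 replicate 2, MEL1 S4 replicate 2 or MEL1 S6 replicate 1.

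Of the YAP and TEAD genes, 4 of 23 were called lower and 1 higher, beside 2.33% and 2.85% of all genes, and 3 of the fallers held in both lines (1.28%). CCN2 and CCN1 encode secreted matricellular proteins whose transcription YAP drives through TEAD factors, AJUBA a LIM protein that restrains the Hippo kinases, and TEAD4 one of the DNA-binding partners of YAP. CCN2 was at 164 and 126 (H1) and 301 and 287 CPM (MEL1) at S4 against 26.2 and 30.5 (H1) and 87.2 and 72.3 CPM (MEL1) at S6. The stages did not overlap, and the change was -2.05 ± 0.67 (SE, adjusted p = 0.0859), but the call was lost when any library except H1 S4 replicate 2 was left out. CCN1 was at 114 and 86.5 (H1) and 255 and 226 CPM (MEL1) at S4 against 27.0 and 30.9 (H1) and 92.8 and 62.2 CPM (MEL1) at S6 and changed by -1.70 ± 0.45 (SE, adjusted p = 0.0375), a call lost without H1 S6 replicate 1 or MEL1 S4 replicate 1. AJUBA (-1.55 ± 0.34, SE, adjusted p = 0.0156) and TEAD4 (-1.17 ± 0.21, SE, adjusted p = 0.00469) were called whichever library was left out. NF2, which encodes the Hippo activator merlin, was the riser (1.19 ± 0.37, SE, adjusted p = 0.0753), and was not called when any library except H1 S4 replicate 2 was left out. With single libraries left out, between 2 (without H1 S6 replicate 1) and 6 members (without H1 S4 replicate 2) were called lower. Of these 5 held in both lines without H1 S4 replicate 2, but 1 without H1 S6 replicate 1, either MEL1 S4 replicate or MEL1 S6 replicate 1.

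TEAD factors bind the letters GGAATG (reverse complement CATTCC). RefSeq promoter windows (GRCh38.p14, 250 bases before to 50 after the start, the first listed window of a gene) were searched for these letters on both strands, as 1 of 12 motifs tried after the values had been seen. Of the 102 genes that fell in both lines 82 had a window, of the 113 that rose 75 and of the 7973 tested 5994. The motif was in 21 of the 82 (25.6%), 5 of the 75 (6.67%) and 630 of the 5994 (10.5%), and in 14.0% of all 27305 windows. Each set lacked windows for many of its genes, and no comparison is drawn between these shares. The risers that held it included GDF15 and MUC1. The other motifs were CAAAGTCCA, its short form AAAGTCCA (which overlaps it), the AP-1 letters TGANTCA, the cAMP response element TGACGTCA, the forkhead letters TGTTTAC, the GC box GGGCGGGG, the SMAD palindrome GTCTAGAC, the sterol element TCACNCCAC, the carbohydrate response element, the CArG box and a long palindrome. Of these, the GC box was in 40.2% of the windows of the fallers, 46.7% of those of the risers, 41.5% of those of the genes tested and 22.9% of all windows. CAAAGTCCA, the HNF4 letters, was in 3.66% (3 windows) of the fallers, none of the risers, 0.217% of the genes tested and 0.359% of all. The AP-1 letters were in 11.0%, 8.0%, 3.89% and 7.76%. The share is a description, and no binding was measured. Of the YAP and TEAD genes lower in both lines CCN2 held the TEAD letters, AJUBA did not and CCN1 had no window. The windows of CCN2, and of the fallers VTN, F7 and FGFR4 that the rule names, are shown on the strand of the gene, with the motif in capitals:
CCN2 (chr6:131951526-131951551, minus strand, 169 bases before the start): ttcagacggaGGAATGctgagtgtca
CCN2 (chr6:131951461-131951486, minus strand, 104 bases before the start): aaggtggggaGGAATGcgaggaatgt
CCN2 (chr6:131951452-131951477, minus strand, 95 bases before the start): aggaatgcgaGGAATGtccctgtttg
VTN (chr17:28370396-28370421, minus strand, 104 bases before the start): cagtgttccaGGAATGtgacctttgc
F7 (chr13:113105791-113105816, plus strand, at or after the start): agtcccatggGGAATGtcaacaggca
FGFR4 (chr5:177086905-177086930, plus strand, at or after the start): gtcgcgggtaCATTCCtcgctcccgg
The last pair of CCN2 windows overlap, since 2 copies of the motif stand close together there.

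The retinoic acid, Hedgehog, FGF and EGF, thyroid hormone and Notch lists each held 1 or 2 called members, beside 2.85% of all genes called higher and 2.33% lower. DHRS3, a retinaldehyde reductase that retinoic acid induces, was at 105 and 68.2 (H1) and 111 and 93.5 CPM (MEL1) at S4 against 6.76 and 4.42 (H1) and 31.8 and 35.1 CPM (MEL1) at S6 and was the called member of 11 measured retinoic acid genes (-2.43 ± 0.50, SE, adjusted p = 0.01). IHH, a Hedgehog ligand, was the called member of 14 (-1.28 ± 0.29, SE, adjusted p = 0.0181), falling less than 2-fold in MEL1 (-0.74), and 2 were lower without H1 S4 replicate 2. Of 22 FGF and EGF genes 1 was lower and 1 higher, with 1 higher and 7 lower in the H1 libraries alone (median -0.63) and 7 higher and 2 lower in the MEL1 libraries alone (median 0.50). Of the retinoic acid genes, 1 was higher and 5 lower in H1 alone and 2 and 2 in MEL1 alone, and of the Notch genes none higher and 2 lower in H1 alone and 6 and none in MEL1 alone. Over at most 7973 genes 397 were higher and 348 lower in H1 alone, and 618 and 629 in MEL1 alone. These differences between the lines were not tested for the lists. FGFR4, a fibroblast growth factor receptor, changed by -2.24 ± 0.60 (SE, adjusted p = 0.0389) (not called without MEL1 S4 replicate 2, where it was -1.65, or MEL1 S6 replicate 1), whereas DUSP4, a phosphatase induced by ERK signalling, rose by 1.47 ± 0.33 (SE, adjusted p = 0.017) but by less than 2-fold in H1 (0.66). Of 9 thyroid hormone genes 2 were called, both higher. KLF9, a thyroid hormone-responsive transcription factor, was at 0 and 1.24 (H1) and 1.26 and 0.370 CPM (MEL1) at S4 against 4.09 and 3.53 (H1) and 9.36 and 17.4 CPM (MEL1) at S6 (3.12 ± 0.70, SE, adjusted p = 0.0176, and 4.27 without H1 S4 replicate 2), and DIO3, the deiodinase that inactivates thyroid hormone, at 7.92 and 23.4 (H1) and 22.7 and 21.8 CPM (MEL1) at S4 against 27.6 and 24.7 (H1) and 98.1 and 106 CPM (MEL1) at S6 (1.49 ± 0.35, SE, adjusted p = 0.0217), with less than 2-fold in H1. Of 24 Notch genes NOTCH1 alone was called (1.70 ± 0.56, SE, adjusted p = 0.0879), with 2.63 in MEL1 and 0.41 in H1, an adjusted p of the difference of 3.24e-05. It was not called with either H1 S4 replicate or any single MEL1 library of S4 or S6 left out.

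Several cell-surface and matrix genes were lower at S6. Mesenchyme markers (COL1A1, PDGFRA and PDGFRB, 3 of 5 measured, none called) summed to 600.1 and 645 CPM at S4 and 95.3 and 99.95 CPM at S6 in MEL1, and to 43.3 and 51.3 CPM at S4 and 102 and 107 CPM at S6 in H1, and their part was not tested. PODXL, the sialomucin podocalyxin that is abundant on stem cells, was at 737 and 555 (H1) and 529 and 483 CPM (MEL1) at S4 against 114 and 104 (H1) and 67.8 and 73.1 CPM (MEL1) at S6. The stages did not overlap, the change was -2.56 in H1 and -2.85 in MEL1, a difference of -0.28 ± 0.22 (SE, adjusted p = 0.431), and its adjusted p was the smallest of the fallers together with that of APOB (-2.69 ± 0.22, SE, adjusted p = 8.22e-06). It fell at each step, from between 4296 and 6296 CPM at S0. VCAN, the proteoglycan versican, was at 2245 and 1771 (H1) and 3452 and 3135 CPM (MEL1) at S4 against 685 and 706 (H1) and 404 and 323 CPM (MEL1) at S6 (-2.26 ± 0.29, SE, adjusted p = 0.000422), FN1, fibronectin, changed by -1.39 ± 0.27 (SE, adjusted p = 0.0077), and FREM2, a basement membrane protein, by -1.38 ± 0.19 (SE, adjusted p = 0.000503), less than 2-fold in MEL1 (-0.96). CDH2, N-cadherin, changed by -1.32 ± 0.33 (SE, adjusted p = 0.0304) but by less than 2-fold in H1 (-0.51), and was not called without either MEL1 S6 replicate. Of 34 matrix and adhesion genes 4 were lower and 1, SDC1, higher, with a median of -0.16, beside 2.33% and 2.85% of all genes. The lower count was 7 without H1 S4 replicate 2, with 2 higher, and 2 without either MEL1 S6 replicate. FN1 was the called member of 16 mesenchyme genes, of which 2 were lower without H1 S4 replicate 2. In the H1 libraries alone 5 of the 16 were called higher and 1 lower (median 0.73), beside 397 and 348 of at most 7973 genes. In the MEL1 libraries alone none was higher and 5 were lower (median -0.53), beside 618 and 629.

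Hepatic and intestinal genes, mostly of plasma proteins, formed the list with the lowest median, -2.11. Of 10 measured members 6 were called lower and none higher, 5 of them in both lines, beside 2.33% of all genes lower and 1.28% lower in both lines. Without H1 S4 replicate 2 there were 6 lower and 1 higher. AFP, the fetal serum protein α-fetoprotein, was at 7.18 and 5.36 (H1) and 22532 and 26722 CPM (MEL1) at S4 against 1.42 and 0.883 (H1) and 245 and 245 CPM (MEL1) at S6, and its change was -5.50 ± 0.67 (SE, adjusted p = 0.000246), from -6.10 without H1 S6 replicate 1 to -4.71 without MEL1 S6 replicate 1. APOB, a lipoprotein component, was at 13.4 and 8.66 (H1) and 643 and 617 CPM (MEL1) at S4 against 1.78 and 0.663 (H1) and 28.5 and 19.8 CPM (MEL1) at S6, and changed by -4.20 ± 0.35 (SE, adjusted p = 8.22e-06), in MEL1 by -4.70 and in H1 by -3.03. Within each line the stages were apart, but every H1 library lay below every MEL1 library of S6, so that the fall in H1 was between low levels. The list took 7.47% and 7.91% of the reads of the MEL1 S4 libraries, 1.02% and 1.03% at S6, and in H1 0.0837% and 0.0771% at S4 and 0.106% and 0.104% at S6. In the H1 libraries alone 4 members were called lower and 3 higher, beside 348 lower and 397 higher of at most 7973 genes. In the MEL1 libraries alone 8 were lower and 1 higher, beside 629 and 618. APOA1 changed by less than 2-fold in H1 (-0.68) and by -3.98 in MEL1 (adjusted p of the difference = 1.62e-08), and its call was lost with any single MEL1 library of S4 or S6 left out. The plasma proteins HABP2 (-3.28 ± 0.40, SE, adjusted p = 0.000246) and F7, clotting factor VII (-3.06 ± 0.56, SE, adjusted p = 0.00517), were also among the 20 largest falls, as was FLT1, a receptor of vascular endothelial growth factor (-3.07 ± 0.58, SE, adjusted p = 0.00611).

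The counts of the cell cycle, stress and metabolic lists stand beside 2.85% of all genes called higher and 2.33% lower. Of 61 proliferation genes CDKN1B, which encodes the cell cycle inhibitor p27, rose by 1.20 ± 0.19 (SE, adjusted p = 0.00209) and AURKB, a mitotic kinase, by 1.12 ± 0.22 (SE, adjusted p = 0.00733), each by less than 2-fold in H1. None was lower, and the median was 0.27. In the MEL1 libraries alone 15 were called higher and 2 lower, beside 618 and 629 of at most 7973 genes. In the H1 libraries alone 1 was higher and none lower, beside 397 and 348. AURKB was not called without MEL1 S4 replicate 2. Of 26 endoplasmic reticulum stress genes 3 were lower, among them DDIT3, a transcription factor of the unfolded protein response, which was at 73.3 and 55.7 (H1) and 85.0 and 75.1 CPM (MEL1) at S4 against 28.6 and 25.8 (H1) and 41.2 and 30.7 CPM (MEL1) at S6 (-1.20 ± 0.32, SE, adjusted p = 0.04, not called without H1 S4 replicate 1 or either MEL1 S6 replicate). The others were SESN2, not called without H1 S4 replicate 1, and DNAJB9, not called whichever library was left out. With single libraries left out the list had between 0 (without H1 S4 replicate 1) and 2 members lower and at most 1 higher, and without H1 S4 replicate 2 it had 2 and 1. In the H1 libraries alone 6 were lower and none higher, and in the MEL1 libraries alone 1 and 2. Of 23 glucose metabolism genes ENO2, the neuron- and islet-enriched enolase, rose in both lines (1.68 ± 0.26, SE, adjusted p = 0.00136), and HK1, hexokinase 1, was called with 1.09 ± 0.35 (SE, adjusted p = 0.0826) but not when any library except H1 S4 replicate 1 was left out, so that 1 was called without H1 S4 replicate 2. Of 20 sterol synthesis genes 2 were called, both higher in both lines, with 5 higher and none lower in the H1 libraries alone and 1 higher and 3 lower in the MEL1 libraries alone. INSIG1, a brake on cholesterol synthesis, rose by 1.74 ± 0.36 (SE, adjusted p = 0.01). None of 15 measured m6A regulators was called, their log2 fold changes running from -1.27 to 0.34. Without H1 S6 replicate 2 there was 1 called lower, and likewise 1 in the MEL1 libraries alone. At an unadjusted p under 0.05 there were 4 of the 15 (IGF2BP1, WTAP, YTHDC1 and YTHDF1), beside 21.0% of all genes. All 4 had lower values at S6, and DESeq2 called none. MUC1 was the called member of 9 ductal and exocrine genes, at 8.89 CPM or less, and was not called when any library except H1 S4 replicate 2 was left out. DESeq2 called 3 of the 9 and the 8 S4 and S6 libraries alone 4, all higher in both lines. None of 7 α, δ and other endocrine genes was called. At an unadjusted p under 0.05 there was 1, IRX2, beside 21.0% of all genes, and DESeq2 called it. Of 12 pluripotency genes NODAL, LEFTY2 and DPPA4, which marks undifferentiated cells, were lower. DPPA4 was not called with H1 S4 replicate 1 or any single MEL1 library of S4 or S6 left out.

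**Figure D4:**
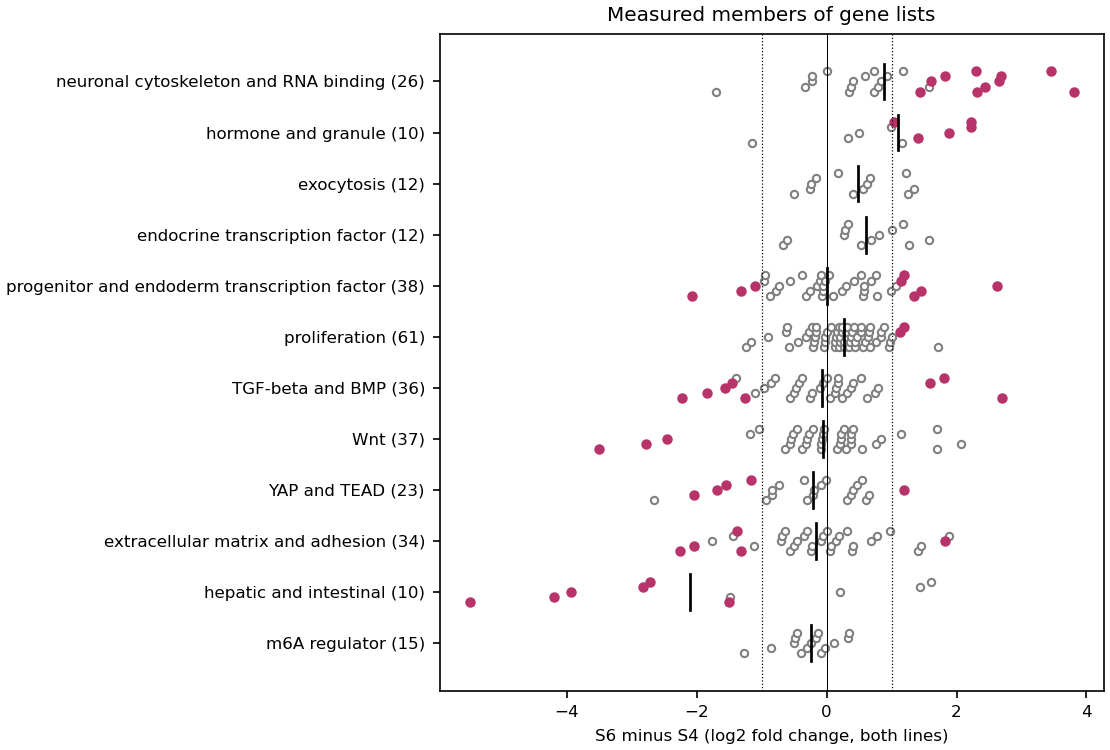
Log2 fold change from S4 to S6 of every measured member of 12 gene lists (number measured in parentheses), from the model with both lines. Filled circles were called, open circles were not, black bars are medians and dotted lines mark a 2-fold change; called members lie to the right in the neuronal and hormone lists and to the left in the hepatic, Wnt and most of the YAP and TEAD list.

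The earlier stages show where these genes stood before. Of the 113 genes that rose in both lines, 93 had their highest mean at S6 and 19 at S0, and their median level was 8.95 CPM in S0, 5.72 CPM in S3, 9.97 CPM before and 38.7 CPM after the step to S6. IFITM1, for instance, was at 625 to 733 CPM at S0, between 15.8 and 39.7 CPM at S3 and S4, and back to 864 and 865 CPM at S6 in H1 but to 136 and 122 CPM in MEL1. Of the 102 genes that fell, 44 were highest at S4, 40 at S3 and 18 at S0, and 54 had their lowest mean at S6. Of all 7973 genes tested 1953 were highest at S6, 1730 at S4, 1524 at S3 and 2766 at S0. The lowest mean was at S6 in 2028 of them. By their selection risers cannot be highest at S4 and fallers cannot be highest at S6. These levels share the S4 and S6 libraries with the comparison and carry no test.

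A gene level that sums several peaks could rest on 1 of them. Among the genes that rose, 85 had at least 2 peaks with 10 reads or more, and in all 85 every peak moved in the direction of the gene (295 peaks). Among those that fell, 79 of 81 did, with 356 of 359 peaks. Because a gene level is the sum of these same peaks, this agreement was partly built in and is no independent check. The m6A antibody libraries of the same RNA, which were not used for the calls, moved in the same direction in both lines for 101 of the 113 risers, beside 43.8% of all genes, and for 85 of the 102 fallers, beside 17.9%. They measure methylation and abundance together.

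The change from S4 to S6 itself differed between the lines in 1840 genes (23.1%; adjusted p under 0.1, edgeR's quasi-likelihood interaction test), 942 with the larger value in MEL1 and 898 in H1. In 90 genes the lines moved at least 2-fold in opposite directions. DUSP6, a phosphatase that ERK signalling induces, was at 316 and 253 (H1) and 215 and 207 CPM (MEL1) at S4 against 68.7 and 63.4 (H1) and 762 and 726 CPM (MEL1) at S6, and the lines differed by 3.92 ± 0.20 (SE, adjusted p = 2e-11). CTSB, the lysosomal protease cathepsin B, was at 41.1 and 40.0 (H1) and 1858 and 1631 CPM (MEL1) at S4 against 97.0 and 89.7 (H1) and 210.4 and 183 CPM (MEL1) at S6, a difference of -4.35 ± 0.20 (SE, adjusted p = 1.17e-11). RND1 fell from 652 to 670 CPM to 8.48 to 9.36 CPM in MEL1 while H1 lay between 11.3 and 15.3 CPM, a difference of -5.87 ± 0.28 (SE, adjusted p = 1.17e-11).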

How the data were processed

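Input and m6A immunoprecipitated libraries of H1 and MEL1 cells at 4 stages were deposited as 1 table of raw read counts per merged peak, which the authors made with MeRIPtools on Ensembl annotation; aligner and genome build are not given in the sources used here. All 32 columns were assigned to samples by title. Of 26104 peaks, 31 second copies of 8 genes were left out. Input counts were summed over the peaks of a gene, and genes with fewer than 10 reads in all were dropped. Of 7978 genes 7596 matched a symbol. edgeR 4.0.16 (R 4.3.3; TMM, glmQLFit, glmQLFTest) was fitted to all 16 input libraries with stage and cell line, with a Benjamini-Hochberg adjusted p under 0.1 and 2-fold as thresholds. Fold changes by line and the interaction came from a model with a separate mean for each line and stage. Standard errors were obtained by dividing the absolute fold change (log2) by the square root of F. The S4 and S6 libraries held 2648841 to 5270947 reads, and intervals cover counting error only. The test was checked on simulated counts; DESeq2 1.42.0, other scalings, filters and libraries left out were alternatives. P-values of the pooled change measure the spread of all 16 input libraries around a model with stage and cell line. That spread holds differences between the lines at any stage, S0 and S3 included, besides the spread between replicates. P-values of the difference between lines measure the spread between replicates. Peak selection favours methylated transcripts, so that a gene's level reflects its methylated region.

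Named genes were the 20 largest rises and falls changed in both lines with a mean of at least 10 CPM at the higher stage, up to 6 called members of each list by smallest adjusted p, 15 islet genes and the 3 smallest p of a line difference in each direction; EGR1 was added after its values were seen. The gene lists, the members and the tests were chosen with earlier results of these data known. Some genes are not reported here. The immunoprecipitated libraries were used only for direction.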

Additional observations from a re-analysis of the deposited data

Results flagged for a closer look

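The change from S4 to S6 differed between H1 and MEL1 in 1840 genes (interaction term in edgeR, adjusted p below 0.1). Of these, 9 are given here, chosen for the smallest p of the difference or as islet genes, as the MEL1 change minus the H1 change on the log2 scale. The change was higher in MEL1 for PDX1, the pancreatic master factor (4.81), DUSP6, an ERK-induced phosphatase (3.92), COL9A2, a collagen chain (3.43), MNX1, a β-cell homeobox factor (3.25), CHGA, chromogranin A (3.24), and SOX9, a progenitor and duct factor (2.67). It was lower in MEL1 for RND1 (-5.87), DPYSL3, a neuronal growth-cone protein (-5.07), and CTSB, cathepsin B (-4.35). MNX1 rests on low levels, 17.3 CPM or less in every S4 and S6 library, and had the largest adjusted p of the 9 (0.00332, edgeR). Hepatic markers moved with the line as well, their sum falling from 62017 and 65263 CPM at S4 to 2868 and 2951 CPM at S6 in MEL1 and lying at 187 CPM or less in H1; their part in these differences was not tested. A line and stage holds 2 libraries, too few for Dixon's test.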

How the results depend on the processing

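The 413 called genes became 149 without cell line in the model, 745 in the H1 libraries alone and 1247 in the MEL1 libraries alone. Leaving out single libraries gave 266 to 546 called genes, 161 to 318 changed in both lines (215 with all libraries) and 1305 to 2100 that differed between lines. The both-lines count was 91 without cell line. The other alternatives (DESeq2, RLE, upper-quartile, no filter, filterByExpr, the 8 libraries alone, the peak with most reads, no mitochondrial transcripts and, chosen after seeing the data, no hepatic and intestinal list) stayed within 1.5 times, from 364 to 575 called genes. The main model did not pair libraries by replicate number. The replicate differences of the 2 stages correlated at -0.01 in H1 and 0.25 in MEL1, so a pairing in MEL1 cannot be dismissed. With the replicate block 337 genes were called, 182 of them in both lines. Of 90 named called genes 80 kept their call, and the hormone and granule list had 3 called members. None of the called genes that the rule for named genes gave changed direction under an alternative where it could be fitted. Genes not called did: in the H1 libraries alone CTSB (1.21), DPYSL3 (0.79), DUSP6 (-2.09), HNF4A (0.26), MNX1 (-1.67), PDX1 (-2.93) and SOX9 (-1.04), and in the MEL1 libraries alone GATA6 (0.26) and HHEX (0.66). With the 8 libraries alone DUSP6 was at -0.13, MNX1 at -0.31 and PDX1 at -0.29, and without cell line HHEX was at 0.22 and MNX1 at -0.51. HHEX was at 0.044 with DESeq2 and 0.0049 with the replicate block. Leaving out single libraries gave -0.21 to 0.019 for GATA6, -0.56 to 0.48 for HHEX, -0.66 to 0.64 for MNX1 and -0.20 to 0.99 for PDX1. The cause of these changes was not tested. Depth limits genes such as FZD8, with 4 reads at S6.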
